A study of Drosophila melanogaster with 16 samples.

Results

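The Hsp60 chaperonin paralogs of Drosophila melanogaster are 4 genes, Hsp60A, Hsp60B, Hsp60C and Hsp60D, of 10826 genes that the array names by a probe set with a single gene symbol. They were taken as the probe sets whose platform symbol is exactly a member name, and each gene had 1 such probe set. Adult testes of 3 genotypes were compared, with 5 wild-type arrays, 5 bgcn arrays and 6 Os+bgcn arrays. The bgcn males are labelled bgcn-, mutant for benign gonial cell neoplasm, in whose testes germ cells go on dividing instead of differentiating into spermatocytes, and the Os+bgcn males are labelled as bgcn- too and as Os, a name also used for the JAK-STAT ligand gene upd1. The sources used here give neither the alleles, nor the way Os was supplied, nor the age of the males. A bgcn sample was pooled from 750 testes and an Os+bgcn or wild-type sample from 150, so in comparisons with bgcn the effects of pool size and genotype cannot be told apart. Samples were grouped by title, although the protocol of the wild-type samples names bgcn- testes.

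Hsp60 forms the double-ring chamber in the mitochondrial matrix in which newly imported proteins fold, closed by a lid of the small co-chaperonin Hsp10. Proteins reach it after passing the translocases of the outer (TOM) and inner (TIM) membranes and the mitochondrial Hsp70. Hsp60A is the essential gene used in most tissues. Hsp60B and Hsp60C are known as genes that male fertility depends on, Hsp60B at sperm individualization, when syncytial spermatids are parted into single sperm, and Hsp60C at earlier stages and also in the developing trachea. Hsp60D has been linked to apoptosis. Mitochondria of fly spermatids fuse into a large body, the nebenkern, which then elongates along the sperm tail.

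Signal is the MAS5 value of a probe set on a linear scale. Medians over all probe sets of an array lay between 56.2 and 59.4 for wild-type, between 67.8 and 74.2 for bgcn and between 66.95 and 74.5 for Os+bgcn. A signal of 42.9, the pooled 40th percentile of all values, served as the limit below which a level is called dim here. The labelled tissue held its markers: the summed signal of 27 spermatid genes ranged over 204572 to 227031 in wild-type arrays, over 918 to 1961 in bgcn arrays and over 1018 to 1567 in Os+bgcn arrays. That of 11 early germline genes was 321 to 485, 4691 to 5963 and 9924 to 12164, all 11 being higher in each mutant; with arrays centred on 12 ribosomal protein genes (ribosomal centring) 4 were higher and 4 lower in bgcn, and 8 were higher in Os+bgcn. Against wild-type 47.2% of all 10422 tested probe sets were higher in bgcn and 47.3% in Os+bgcn. With ribosomal centring 114 were higher and 8949 lower in bgcn, and 460 were higher in Os+bgcn. With the arrays as deposited, the median difference (log2) of the tested probe sets from wild-type was 0.46 for bgcn and 0.43 for Os+bgcn. For Os+bgcn against bgcn it was 0.03. Both comparisons with wild-type use the same 5 wild-type arrays. In whole testes, fewer cells of a type and less RNA per cell cannot be told apart.

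Hsp60B, Hsp60C and Hsp60D had high signals in wild-type testes and fell in both mutants, to 1.01% to 2.71% of wild-type for Hsp60C and below the dim limit for Hsp60B and Hsp60D, while the signals of Hsp60A overlapped between all genotypes. Of these 3 falling paralogs only Hsp60C had mutant group means above the dim limit, and it was lower in Os+bgcn than in bgcn. Against wild-type, 3 of the 4 members fell in bgcn and the same 3 in Os+bgcn. Among all tested probe sets 22.6% were called lower in bgcn and 24.2% in Os+bgcn, at an adjusted p under 0.05. Between both mutants 1 of the 4 members was called lower, against a background of 8.91%. Hsp60B and Hsp60D entered the test only through their wild-type level, since a probe set was tested when at least 5 arrays exceeded 42.9, and had therefore to differ from the mutants. Their counts add nothing beyond the values that follow.

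**Figure D1:**
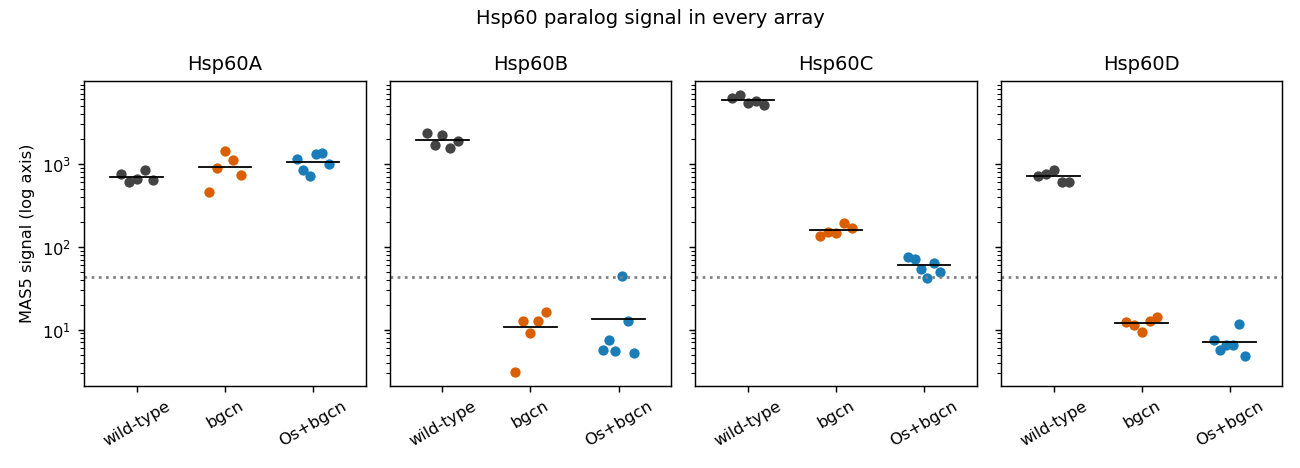
MAS5 signal (log axis) of each Hsp60 paralog in every array, with a bar at each group mean and a dotted line at 42.9, the dim limit. Hsp60A overlaps between all genotypes, Hsp60B and Hsp60D drop below the line in the mutants except for 1 Os+bgcn array of Hsp60B, and Hsp60C forms 3 separate groups.

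Hsp60A, on the X chromosome, is the general chaperonin. Its signal in the 5 wild-type arrays was 762.1, 597.3, 653.1, 831.7 and 630.1. In the 5 bgcn arrays it was 461.8, 901.5, 1421, 1114.3 and 731.9. In the 6 Os+bgcn arrays the lowest was 716.7, the median 1069.25 and the highest 1338.3. The arrays of all 3 genotypes overlapped, and the spread was widest in bgcn, with a coefficient of variation of 39.5% against 14.2% in wild-type and 23.5% in Os+bgcn. The means were 695 ± 98.4 (SD, n = 5) in wild-type, 926 ± 365 (n = 5) in bgcn and 1057 ± 248 (n = 6) in Os+bgcn.

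In the limma fit Hsp60A differed between bgcn and wild-type by 0.32 ± 0.23 (log2, SE; 95% interval -0.17 to 0.81; adjusted p = 0.23). Between Os+bgcn and wild-type it was higher by 0.57 ± 0.22 (95% interval 0.10 to 1.03), which passed the limma test with an adjusted p of 0.028, as did 47.3% of all tested probe sets in the same direction. Relative to the median of all tested probe sets these differences were -0.14 and 0.14, and 45.1% and 54.6% of tested probe sets had a lower difference. Between both mutants the difference was 0.25 ± 0.22 (95% interval -0.22 to 0.71; limma adjusted p = 0.48).

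The direction of Hsp60A depended on the scaling of the arrays. Centred on 12 ribosomal protein genes, all of which rose in both mutants on the deposited scale, it was -2.13 in bgcn (limma adjusted p = 7.4e-09) and -1.50 in Os+bgcn (3.4e-06) against wild-type. The same centring moved the median of all tested probe sets to -1.99 and -1.64. With arrays centred on their own median the difference in Os+bgcn was 0.34 (limma adjusted p = 0.18), and with the accessory gland median as a covariate it was 0.26 (0.47). The call in Os+bgcn was also lost without Os+bgcn array 1, 4 or 5 or wild-type array 2, 3 or 5, with a limma adjusted p of 0.050 to 0.065. The lowest bgcn value, in array 1, fell in the array with the highest accessory gland median of that group (10.66, others 8.12 to 9.94, log2). The same array had the lowest medians of the group for ribosomal protein genes (12.18, others 12.76 to 13.42), hemocyte genes (7.13) and spermatocyte regulators (5.82). The part of this array in the result was not tested beyond leaving it out. Without that array the bgcn difference passed at 0.54 (limma adjusted p = 0.021).

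Hsp60B, on chromosome arm 2L, is the paralog needed for sperm individualization. Its wild-type signals were 2330, 1672.7, 2229.7, 1545.3 and 1907.2. In bgcn they were 3.1, 12.8, 9.0, 12.8 and 16.1. In Os+bgcn the lowest was 5.2, the median 6.55 and the highest 44.8, the last in array 4. No mutant array came near a wild-type value, and all but that Os+bgcn array lay below the dim limit.

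The wild-type mean of Hsp60B was 1937 ± 341 (SD, n = 5). Taking the mutant means at the limit of 42.9, the wild-type mean was at least 45.2-fold higher than either. On average no more than 2.21% of the wild-type level was left. Os+bgcn array 4, at 44.8, lay just above this limit. A probe set that Hsp60B shares with a further gene kept more signal in the mutants and is described at the end. The fitted differences were -6.05 ± 0.24 in bgcn (log2, SE) and -6.0 ± 0.23 in Os+bgcn. They are a description with no test, since Hsp60B entered the test only through its wild-type level. Arrays did not overlap. Of all 10422 tested probe sets, 19.3% were lower in bgcn without overlap of arrays and 22.6% were called lower. In Os+bgcn these shares were 20.1% and 24.2%. Both mutant groups had means at or under the limit, so no fold is given between them; the fitted difference was 0.05 (95% interval -0.44 to 0.53; limma adjusted p = 0.92).

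Hsp60C, also on 2L, is needed earlier in spermatogenesis, and its mean lay above the dim limit in every genotype. Its wild-type signals were 6164.9, 6782.2, 5472.2, 5754.1 and 5191.4. In bgcn they were 134.9, 152.1, 148.4, 194.6 and 166.9. In Os+bgcn the lowest was 41.9, the median 59.15 and the highest 76.2. The 3 genotypes did not overlap: every wild-type array lay above every bgcn array, and every bgcn array above every Os+bgcn array. Of the Os+bgcn arrays, 5 were above the dim limit.

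The means of Hsp60C were 5873 ± 623 (SD, n = 5) in wild-type, 159 ± 22.7 (n = 5) in bgcn and 59.5 ± 13.3 (n = 6) in Os+bgcn. Thus 2.71% of the wild-type signal was found in bgcn, a ratio of 36.8-fold, and 1.01% in Os+bgcn, a ratio of 98.8-fold. The fitted differences from wild-type were -5.05 ± 0.14 (log2, SE; limma adjusted p = 6.8e-17) and -6.25 ± 0.13 (1.7e-18). Of the 10422 tested probe sets, 253 had a more negative difference in bgcn and 97 in Os+bgcn.

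Between both mutants Hsp60C was 2.68-fold lower in Os+bgcn by the ratio of means. On the log2 scale the difference was -1.20 ± 0.13 (95% interval -1.48 to -0.92), with a limma adjusted p of 2.8e-06, and 3.17% of tested probe sets had a more negative difference. Of all 10422 tested probe sets, 5.33% were lower in Os+bgcn without overlap of arrays, and 8.91% were called lower. Leaving out any single array gave -1.26 to -1.13. Centred on the 12 ribosomal protein genes the difference was -0.81 (limma adjusted p = 0.033), and centred on 31 genes with a ribosomal protein symbol it was -0.80 and did not pass (adjusted p = 0.062).

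**Figure D2:**
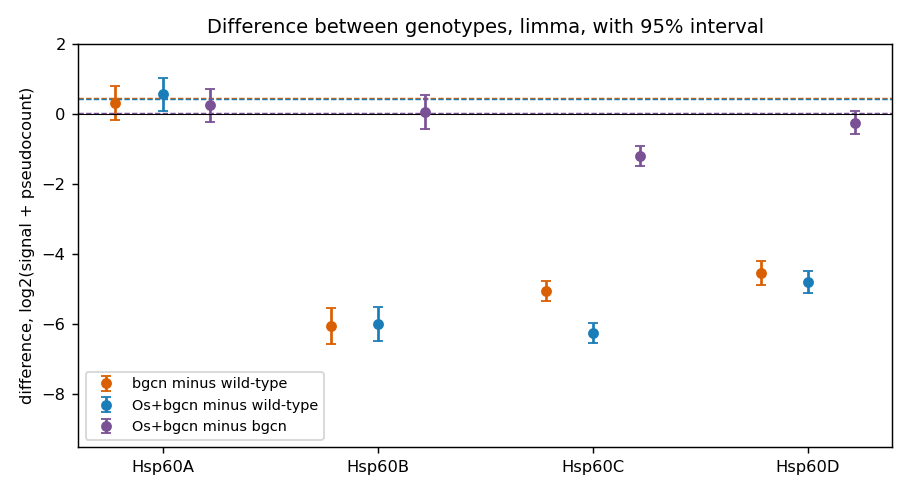
Differences between genotypes for each paralog on the log2(signal + 18.8) scale, with 95% intervals from limma and dashed lines at the median of all tested probe sets. Hsp60B, Hsp60C and Hsp60D lie between -6.25 and -4.54 against wild-type, Hsp60A lies between 0.25 and 0.57 in all comparisons, and between both mutants Hsp60C alone has an interval clear of 0.

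Marker lists of other cell types differed between both mutants too, some in the direction of Hsp60C and some against it. Over all 10422 tested probe sets 8.91% were called lower and 11.6% higher in Os+bgcn than in bgcn. With ribosomal centring 267 were lower and 1712 higher. All 16 accessory gland genes were lower in Os+bgcn (15 with ribosomal centring), with array medians of 5.16 to 7.69 (log2) against 8.12 to 10.66 in bgcn and 7.97 to 9.65 in wild-type. Their summed signal was 570 to 3929 in Os+bgcn, 4942 to 27529 in bgcn and 8138 to 32266 in wild-type, and 3 of the 16 were dim on average in Os+bgcn. Of 11 muscle sheath genes 6 were lower in Os+bgcn (4 with ribosomal centring) and 5 did not pass, with summed signals of 2451 to 4091 against 4052 to 6309 in bgcn, and 2 were dim in Os+bgcn. Of 9 hemocyte genes 7 were lower (4 with ribosomal centring) and 2 did not pass, at 1508 to 2047 against 2834 to 4217, with 1 dim in Os+bgcn. Of 9 cyst lineage genes 6 were higher and 2 lower in Os+bgcn than in bgcn (6 higher and 3 not passing with ribosomal centring), with a median of 1.14 and summed signals of 3230 to 3976 against 1441 to 1828. Of 11 early germline genes 7 were higher (9 with ribosomal centring) and 4 did not pass, with a median of 1.00. Of 9 genes that regulate the spermatocyte program 1 was higher and 8 did not pass, with a median of 0.17 and summed signals of 1091 to 1453 against 864 to 1075, after 2258 to 2658 in wild-type.

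Hsp60C differed between both mutants by -1.33 ± 0.22 with the accessory gland median as a covariate (limma adjusted p = 0.0013), but these medians do not overlap between the mutants and cannot be told apart from the genotype. Without bgcn arrays 1 and 2, which had the highest accessory gland medians, the difference was -1.28 (limma adjusted p = 1.9e-05). The part of any of these cell types in the Hsp60C difference was not tested. Of 27 spermatid genes 1 was higher and 2 were lower in Os+bgcn, with a median of -0.08, though 17 of them were dim in bgcn and 20 in Os+bgcn.

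**Figure D3:**
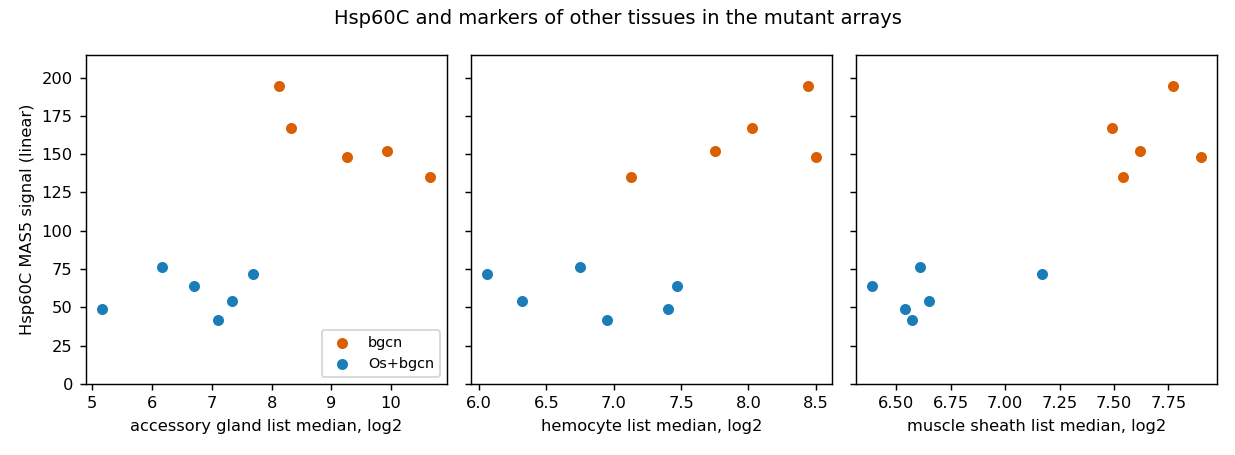
Hsp60C signal (linear axis) in the 5 bgcn and 6 Os+bgcn arrays against the array median (log2) of accessory gland, hemocyte and muscle sheath markers. The genotypes do not overlap in Hsp60C, with bgcn at 134.9 to 194.6 and Os+bgcn at 41.9 to 76.2.

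Hsp60D, likewise on 2L, had wild-type signals of 719, 750.2, 849.2, 603.4 and 601.6. In bgcn they were 12.4, 11.4, 9.3, 12.8 and 14.1. In Os+bgcn the lowest was 4.8, the median 6.55 and the highest 11.8. All mutant arrays were dim and none reached the wild-type range. With a wild-type mean of 705 ± 105 (SD, n = 5), wild-type was at least 16.4-fold higher than the limit of 42.9, so up to 6.09% of its level could have gone unmeasured in the mutants.

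Hsp60D too entered the test only through its wild-type level, so its fitted differences from wild-type are a description with no test. They were -4.54 ± 0.16 in bgcn (log2, SE) and -4.79 ± 0.16 in Os+bgcn. Between both mutants the difference of Hsp60D was -0.25 ± 0.16 (95% interval -0.57 to 0.08, limma adjusted p = 0.29), with both groups dim. RefSeq (assembly Release 6 plus ISO1 MT) places CG42784 so that it overlaps Hsp60D. The probe set of CG42784 did not pass in any comparison (limma adjusted p = 0.18 to 0.87) and had a mean of 31.7 ± 20.6 (SD, n = 5) in wild-type.

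The contrast between the testis paralogs and the general chaperonin was taken within arrays, as log2 of the paralog minus log2 of Hsp60A, a quantity that scaling of a whole array leaves nearly unchanged. Levels of different probe sets are not comparable, so the zero of this quantity has no meaning and only its difference between genotypes is read. From wild-type to bgcn it changed by -5.37 for Hsp60C, with an exact two-sided permutation p of 0.0079, the smallest that 5 against 5 arrays can give, or 0.010 adjusted over the 9 comparisons made. From wild-type to Os+bgcn it changed by -6.81 for Hsp60C, with the smallest exact permutation p of 0.0043 for these group sizes (adjusted p = 0.0097). Hsp60B stood at -6.37 and -6.57 and Hsp60D at -4.86 and -5.36. These 4 values are given as a description with no test, since both genes were dim in the mutants and had to differ.

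Between both mutants the balance moved for Hsp60C, by -1.44 (-3.77 ± 0.45, SD, n = 6, in Os+bgcn and -2.32 ± 0.54, n = 5, in bgcn; exact permutation adjusted p = 0.0097). For Hsp60B and Hsp60D, dim in both mutants, no difference is read there. For Hsp60C the arrays of any pair of genotypes did not overlap in this quantity.

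**Figure D4:**
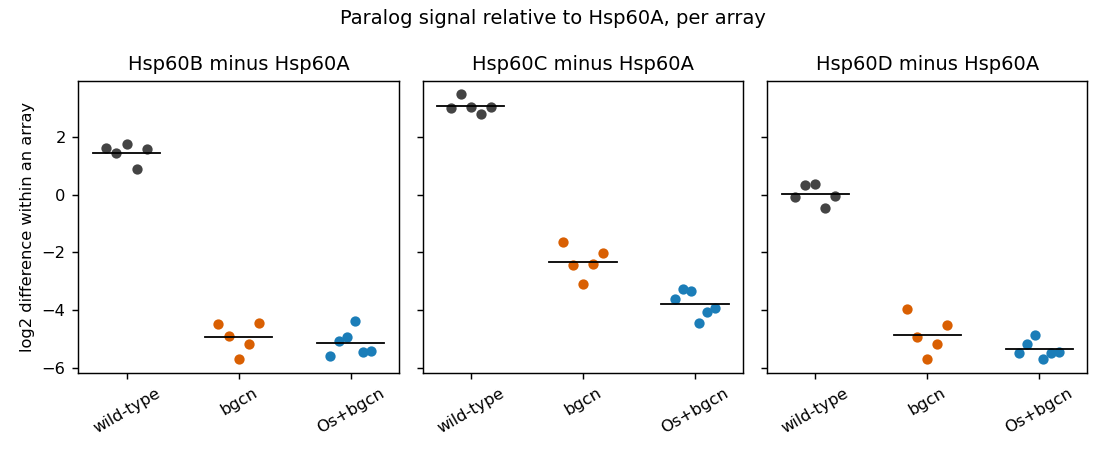
Difference between log2 of each testis paralog and log2 of Hsp60A within every array, with a bar at the group mean; the zero is arbitrary. Mutant means differ from wild-type by -6.81 to -4.86, and for Hsp60C the bgcn arrays (mean -2.32) stand above the Os+bgcn arrays (mean -3.77).

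Among genes that work beside Hsp60, members rose and fell on the deposited scale. Of 6 tested folding partners, 2 rose and 4 fell in bgcn, with a median of -0.66, and 2 rose, 3 fell and 1 did not pass in Os+bgcn, with a median of -0.57. With ribosomal centring all 6 fell in bgcn and 5 fell in Os+bgcn, with medians of -3.11 and -2.64. So did 8949 and 7866 of all 10422 tested probe sets. For comparison, 47.2% of all tested probe sets rose and 22.6% fell in bgcn, and 47.3% rose and 24.2% fell in Os+bgcn, on the deposited scale. Between both mutants the median of the 6 was -0.08. CG11267, which RefSeq also lists as Hsp10, the lid of the chaperonin, had a signal of 318 ± 17.5 (SD, n = 5) in wild-type, 1035 ± 269 (n = 5) in bgcn and 1276 ± 150 (n = 6) in Os+bgcn. It rose by 1.60 ± 0.16 (log2, SE; limma adjusted p = 2.5e-08) and 1.93 ± 0.15 (6.4e-10), but centred on the 12 ribosomal protein genes it stood at -0.85 (adjusted p = 0.0034) and -0.13 (0.63).

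CG9920, put on the partner list by name and without another name in the tables used here, showed the opposite pattern. The wild-type arrays held signals from 9669.5 to 13355.7, those of bgcn from 6.5 to 45.6 and those of Os+bgcn from 7.7 to 45.6. The fitted differences from wild-type were -7.93 ± 0.24 and -8.09 ± 0.23 on the log2 scale, with both mutant means dim. They are a description with no test, since CG9920 entered the test only through its wild-type level. Among the Hsp70 machinery of the matrix, Hsc70-5, the mitochondrial Hsp70 itself, rose by 1.10 ± 0.16 and 1.05 ± 0.16, from 380 ± 70.3 in wild-type to 836 ± 139 and 812 ± 167, but turned to -1.35 and -1.02 with ribosomal centring. Its nucleotide exchange factor Roe1 fell, with differences of -1.46 ± 0.16 and -1.83 ± 0.15, and its J-domain partner CG5504, also listed as lethal (2) tumorous imaginal discs, fell as well, at -0.91 ± 0.16 and -1.02 ± 0.15. Trap1, the mitochondrial Hsp90, fell in bgcn (-0.42 ± 0.13; limma adjusted p = 0.0092) and stood at -0.13 ± 0.13 in Os+bgcn (limma adjusted p = 0.38).

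The cytosolic chaperonin CCT, a related double ring that folds actin and tubulin, moved together in both mutants. All 8 subunits tested rose in bgcn and in Os+bgcn, with medians of 2.12 and 2.51 beside 0.46 and 0.43 over all tested probe sets, but with ribosomal centring the medians were -0.33 and 0.44, with 2 of 8 lower in bgcn and 3 of 8 higher in Os+bgcn. CCT1 rose by 2.87 ± 0.15 and 3.46 ± 0.14, from 191 ± 36.4 (SD, n = 5) to 1513 ± 236 (n = 5) and 2292 ± 358 (n = 6), and CCT3 by 2.74 ± 0.25 and 3.05 ± 0.24. CCT6 and CCT8 rose by 2.31 and 2.15 in bgcn. Over all 10422 tested probe sets 47.2% rose in bgcn and 47.3% in Os+bgcn on the deposited scale. With ribosomal centring 8949 were lower in bgcn and 460 higher in Os+bgcn. Between both mutants 4 of the 8 were higher in Os+bgcn, with CCT4 at 0.87 ± 0.23 (limma adjusted p = 0.011) the largest, against 11.6% of all tested probe sets.

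Of 8 duplicated import genes, 7 fell in each mutant, beside 22.6% and 24.2% of all tested probe sets, with medians of -4.17 and -4.24, and a median of 0.09 between both mutants. tomboy20 and ttm2, copies of the Tom20 receptor and of the Tim50 subunit, had differences of -6.21 ± 0.26 and -5.83 ± 0.16 in bgcn and were dim there, with means of 13.3 and 8.76. tomboy40, a copy of the Tom40 pore, stood at -4.85 ± 0.22, and Tim17a1 at -4.37 ± 0.18. tomboy20, ttm2, tomboy40, Tim17a1 and ttm3, a further gene of this list, were dim in every mutant array. They entered the test only through their wild-type level and had to differ, so the count of 7 is not a test. Tim17b2 was the exception, at -0.49 ± 0.33 (limma adjusted p = 0.19). Of 12 general import genes 7 fell and 5 did not pass in bgcn, and 7 fell, 1 rose and 4 did not pass in Os+bgcn, with medians of -0.72 and -0.70. With ribosomal centring all 8 duplicated genes fell in each mutant, with medians of -6.62 and -6.30, and of the 12 general genes all fell in bgcn and 11 in Os+bgcn, with medians of -3.17 and -2.77. Over all 10422 tested probe sets 8949 fell in bgcn and 7866 in Os+bgcn with this centring. Whether both lists differ was not tested. Tom20 stood at 0.22 ± 0.12 in bgcn (limma adjusted p = 0.12) while Tom40 fell (-0.58 ± 0.21, adjusted p = 0.017). On the general list Tim13, a small chaperone of the intermembrane space, had a difference of -5.58 ± 0.18. Its signal was 1204 ± 79.5 in wild-type and 6.7 ± 1.87 in bgcn. Tim13 too was dim in every mutant array and had to differ, so its difference is a description with no test. The 7 general genes that fell in each mutant include Tim13. mge, the Tom22 receptor, the receptor Tom70 and CG11779, the Tim44 gene, fell as well, at -2.08 ± 0.17, -1.97 ± 0.13 and -1.71 ± 0.27.

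Of 11 mitochondrial protease and quality control genes 4 rose and 6 fell in bgcn, and 4 rose and 7 fell in Os+bgcn, while with ribosomal centring 10 fell in bgcn, and 1 rose and 9 fell in Os+bgcn. Between both mutants 5 rose and 1 fell, against 11.6% and 8.91% of all tested probe sets. Against wild-type 47.2% of all tested probe sets rose and 22.6% fell in bgcn, and 47.3% and 24.2% in Os+bgcn. With ribosomal centring 114 of 10422 rose and 8949 fell in bgcn, and 460 and 7866 in Os+bgcn. HtrA2, a serine protease, fell in bgcn (-2.68 ± 0.15), as did ClpX and ClpP, which form the matrix Clp protease (-2.64 ± 0.16 and -2.03 ± 0.13). Opa1, the inner membrane fusion GTPase, rose by 2.01 ± 0.23 in bgcn on the deposited scale, but with ribosomal centring no gene of this list was called higher in bgcn. Of 9 heat shock and Hsc70 genes 4 rose and 4 fell in each mutant, while with ribosomal centring 8 fell in bgcn and 6 in Os+bgcn. Hsc70-2 fell in bgcn, with a difference of -4.2 ± 0.18. Hsc70-1 stood at -3.91 ± 0.20, but was dim in every mutant array. It entered the test only through its wild-type level and had to differ, so this value is a description with no test. The 4 heat shock and Hsc70 genes that fell in each mutant on the deposited scale include Hsc70-1. Hsp27 and Hsc70-4 rose by 2.18 ± 0.15 and 1.77 ± 0.16 but stood at -0.28 and -0.68 with ribosomal centring.

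**Figure D5:**
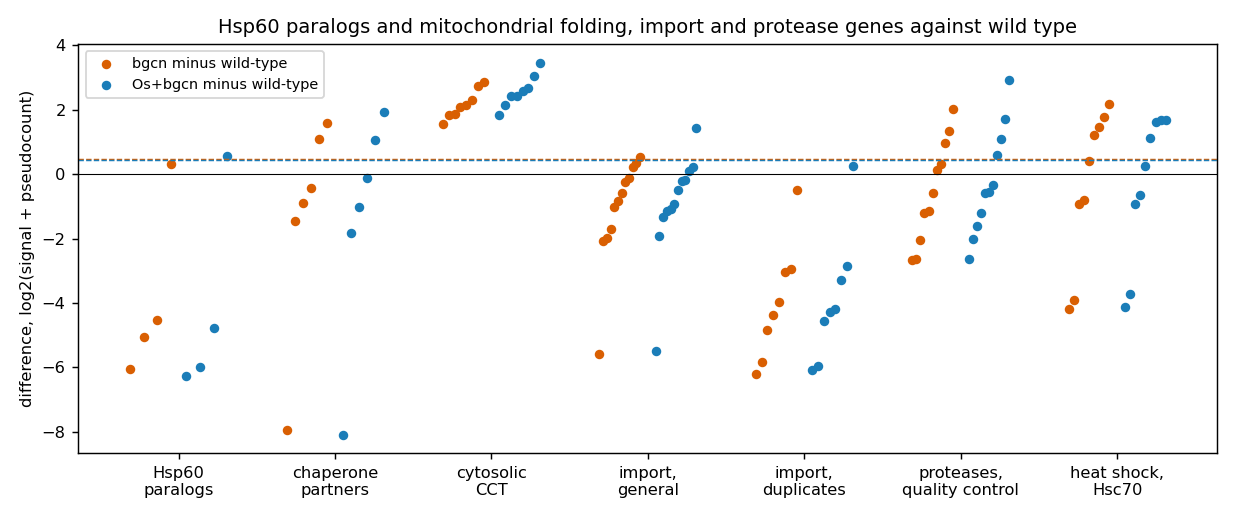
Differences from wild-type (log2) of the 4 Hsp60 paralogs and of each tested gene of 6 lists, with orange for bgcn and blue for Os+bgcn, and dashed lines at the median of all tested probe sets. On the deposited scale all CCT genes lie above the lines (not so with ribosomal centring), 7 of 8 duplicated import genes lie far below, and the partner list is split, with CG9920 at -7.93 and -8.09.

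The genes most like each member were ranked by Pearson correlation over the 16 arrays among 8559 genes. The points share arrays, and the correlations include the differences between the 3 genotypes, so the values describe and do not test. Hsp60B was closest to CG4712 (r = 0.997) and to the zinc transporter gene ZnT35C (0.995), with 115 genes above 0.99. Hsp60D was closest to CG15578 and schuy (0.998 each), with 297 genes above 0.99.

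Hsp60C had 3 genes above 0.99, namely CG33523 (r = 0.996), CG7768 (0.992) and Rcd7 (0.991), followed by the sperm leucyl aminopeptidase S-Lap7 (0.989). Above 0.95 the counts were closer, with 882 genes for Hsp60C, 999 for Hsp60B and 1049 for Hsp60D. CG33523 had means of 944 ± 44.1 (SD, n = 5), 220 ± 25.6 (n = 5) and 167 ± 16.3 (n = 6) in wild-type, bgcn and Os+bgcn, and CG7768 of 1139, 59.8 and 15.6, so both stepped down in the same order as Hsp60C. Hsp60A had no gene above 0.9, and its 5 nearest included Rpn8 (0.862), a subunit of the proteasome cap, CG6324 (0.840), the protein disulfide isomerase gene CaBP1 (0.835) and yps (0.831), which encodes a Y-box RNA-binding protein.

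Of the tested genes next to or overlapping the 3 falling paralogs, namely CG12511, DIP-theta, Hacd2 and CG42784, CG12511 alone fell on the deposited scale. Next to Hsp60C, CG12511 fell from 414 ± 87.7 (SD, n = 5) in wild-type to 8.46 ± 4.40 in bgcn and 6.75 ± 1.91 in Os+bgcn. Its differences of -3.98 and -4.06 (log2) are a description with no test, since CG12511 too entered the test only through its wild-type level. The other neighbour of Hsp60C, DIP-theta, was higher in bgcn by 0.55 (limma adjusted p = 0.012). Hacd2, beside Hsp60D, rose by 1.42 and 1.47 (limma adjusted p = 1.5e-08 and 4.0e-09). Ribosomal centring lowers all differences from wild-type alike, and took Hsp60A from 0.32 to -2.13 in bgcn and from 0.57 to -1.50 in Os+bgcn. The directions given for DIP-theta and Hacd2 thus hold on the deposited scale only. Both coding neighbours of Hsp60B, ds and Eaat2, were too dim to be tested, with wild-type means of 14.2 and 9.78. Beside Hsp60A, CG11122 was too dim as well and CG42249 did not pass in any comparison (limma adjusted p = 0.11 to 0.78).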

How the data were processed

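RNA of dissected adult testes, about 5 µg per sample, was hybridised to 16 single-colour oligonucleotide arrays. The deposited values are linear signal intensity per probe set, which the authors obtained with MAS5 (per the submitters' processing notes, without a version). The mean of each array after trimming 2% at either end was 148 to 149, so the arrays had been scaled alike. The table holds 13966 probe sets. Of these 12443 carry 1 gene symbol, 327 several and 1196 none, and symbols were updated through the gene identifiers of RefSeq (assembly Release 6 plus ISO1 MT). Where a gene had several probe sets, the brightest on average stood for it.

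Values were taken as log2(signal + 18.8), the pooled 25th percentile, so folds of dim genes come out too small. Testing needed a signal above 42.9 on at least 5 arrays, which left out 3544. A gene dim in all mutant arrays could pass only through its wild-type level and had to differ, so its call against wild-type is no test. In limma 3.58.1 (R 4.3.3), 1 coefficient per genotype was estimated from all 16 arrays, with an intensity trend and Benjamini-Hochberg adjustment over all 10422 tested probe sets of each contrast. The threshold was an adjusted p of 0.05. The procedure was tested on simulated data. Paralog minus Hsp60A differences used exact permutation tests (scipy 1.17.1, Python 3.11.15). The labels call the replicates biological; no extraction batch is named. The number of arrays limits the precision.

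The members and lists were chosen with earlier results of these data known, and 3 list names were respelled by hand. Named were all members, the partners CG11267, CG9920, Hsc70-5 and Roe1, and per list up to 4 genes with the largest bgcn difference that passed without overlap of arrays; CG5504, Trap1, Tom20, Tom40, CCT4, Tim17b2 and the neighbours of the members were named outside this rule, after their values were seen. For each member the 5 genes most alike were ranked. Alternatives were other pseudocounts, no filter, other scalings, other variance models, fewer groups, a covariate, a replicate block and arrays left out.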

Additional observations from a re-analysis of the deposited data

Results flagged for a closer look

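The Hsp60B signal of Os+bgcn array 4 was 44.8, while the other 5 Os+bgcn arrays lay at 5.2 to 12.7. Its gap to the nearest array, on the log2 scale, took 0.721 of the range of the group, above the limit of 0.625 for 6 arrays. Of 12 combinations of gene and genotype looked at, this was the only one above its limit. Chance puts about 1 in 20 combinations above the limit, so 1 among 12 can arise by chance. The value is just above the dim limit of 42.9 and far below the lowest wild-type array, 1545.3. Hsp60C and Hsp60D were not raised in the same array, at 41.9 and 6.6.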

How the results depend on the processing

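Of 498 recomputed values for 21 results, 474 kept their direction, where called, and their side of the threshold. This count is no measure of stability. It includes Hsp60B and Hsp60D against wild-type. It also includes fits without an array of the genotype outside the comparison, where the difference itself cannot change. The falls of Hsp60C against wild-type passed in every limma setting that was run; Hsp60B and Hsp60D, tested only through their wild-type level, had to differ and say nothing of stability. Ribosomal centring turned Hsp60A to -2.13 in bgcn and -1.50 in Os+bgcn against wild-type, and to -1.73 and -1.09 with 31 ribosomal genes, a choice made after seeing the data; with those 31 genes Hsp60C between both mutants was -0.80 and did not pass. With 12 ribosomal genes the calls over all probe sets became 114 higher and 8949 lower in bgcn, from 4918 and 2359, and 460 and 7866 in Os+bgcn, from 4925 and 2521, against wild-type, and 1712 and 267 between both mutants, from 1212 and 929; with 31 genes they were 245 and 7887, 789 and 6661, and 1460 and 255. The accessory gland covariate cut the calls between both mutants from 2141 to 530. Hsp60A in bgcn was 0.59 and passed without bgcn arrays 1 and 2, and ran from 0.14 to 0.54 with single arrays left out. Hsp60A in Os+bgcn did not pass at 0.34 with median centring or at 0.26 with the accessory gland covariate, and ran from 0.50 to 0.67 with single arrays left out. The cause of these shifts was not tested. Between both mutants, Hsp60D passed by a permutation test of its probe set alone at -0.25, and its difference relative to Hsp60A at -0.77 with a pseudocount of 4.5; both groups are dim there. Same-numbered arrays deviated together at r = -0.107 to 0.201, so the main fit did not pair arrays by number. These values cannot exclude a batch shared by same-numbered arrays. With a replicate block Hsp60C was -1.16 between both mutants and Hsp60A 0.58 in Os+bgcn, with no limma call of a member changed. The paired permutation of 5 pairs cannot go below p = 0.0625, so under the replicate block all called differences relative to Hsp60A lost their call by construction, at -6.37 and -6.52 for Hsp60B, -5.37 and -6.79 for Hsp60C and -4.86 and -5.35 for Hsp60D in bgcn and Os+bgcn against wild-type, and -1.42 for Hsp60C between both mutants. No member had another probe set to try. Signals under 42.9 are not resolved, which limits Hsp60B and Hsp60D in the mutants.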

Other observations

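A probe set that the platform annotation assigns to Hsp60B and to a further gene was not used, since its signal cannot be given to either. It had 265 ± 21.0 (SD, n = 5) in wild-type, 147 ± 54.5 (n = 5) in bgcn and 79.4 ± 14.2 (n = 6) in Os+bgcn. In the fit without a filter the difference from wild-type was -0.83 ± 0.18 for bgcn (log2, SE; limma adjusted p = 0.00067) and -1.54 ± 0.18 for Os+bgcn (2.2e-07), and that of Os+bgcn from bgcn was -0.71 ± 0.18 (0.0095). The differences from wild-type are smaller than those of the probe set that carries Hsp60B alone, and unlike that probe set it lay above 42.9 in every array, from 57.2 to 296.9.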
